A study of Mus musculus with 4 samples.

Results

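Integrins, syndecans and collagen receptors are the proteins by which cells hold and sense the matrix around them. They were chosen by name: every gene whose symbol is Itga or Itgb followed by a number or letter code, together with Ddr1, Ddr2, Cd44, Sdc1 to Sdc4, Ilk and Ptk2. The annotation of the array listed a probe set of their own for 31 of the 36 genes that the rule names, out of 17097 genes in all. Itga11, Itgad, Itgb8, Ptk2 and Sdc1 were not analysed here. Of the 31 genes, 27 had a mean value above the brightness filter of 4.94 (log2) and entered the test, as did 11078 genes in all. The other 4 (Itga2, Itga5, Itgam and Itgb6) lay close to the background of the array.

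RNA came from the whole inguinal mammary gland at postnatal day 10. The comparison is between 2 mice with both copies of Mt1-mmp, written Mt1-mmp(+/+) in the labels, and 2 littermates without it, written Mt1-mmp(-/-), all of an outbred Swiss Black background, with 1 array each. Each sample is labelled a biological replicate. Mt1-mmp, listed on the array as Mmp14, encodes a collagenase anchored in the cell membrane. The knockout is global, so it concerns every cell type of the gland and the rest of the body. In the knockout arrays Mmp14 itself measured 5.83 and 5.68, against 8.92 and 8.73 in wild type (log2), a difference of -3.07 ± 0.12 (SE, n = 2 per group, limma adjusted p = 0.0738).

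An integrin is a pair of an alpha and a beta chain, and the pairing decides what it binds: laminin of the basement membrane, collagen, or the RGD peptide of fibronectin and vitronectin. Inside the cell the beta chain recruits talin, kindlin and the Ilk complex, which tie it to actin. Syndecans carry heparan sulphate chains and bind matrix and growth factors beside the integrins, the discoidin receptors Ddr1 and Ddr2 are kinases that collagen switches on, and Cd44 binds hyaluronan. In the mammary gland the basal epithelial layer stands on laminin through Itga6 paired with Itgb1 or Itgb4. Mt1-mmp is known to act on proteins of this group at the cell surface, Cd44 and syndecan-1 among them, which an array of transcripts does not measure.

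Differences between the genotypes went both ways within the group. Itga1, Itga4, Itga6, Itgb5, Itgb1 and Ilk were lower in both knockout arrays, and Sdc4, Itgb4 and Itga8 were higher in both. Differences of the 27 tested genes ran from -1.15 for Itga1 to 0.69 for Itga8 on the log2 scale, and 7 were at least 1.5-fold. The median was 0.00, with 13 genes higher and 14 lower, beside a median of -0.02 over all tested genes. The median size of a difference, whatever its sign, was 0.25 in the group and 0.21 over all tested genes.

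No gene of the group passed the threshold. With limma and Benjamini-Hochberg adjustment over all 11078 genes at 0.05, 0 were higher and 0 lower, as was true of all genes (0% in either direction), and the smallest adjusted p in the group was 0.123, for Sdc4. At an unadjusted p under 0.05, 2 of 27 were higher (Itgb4 and Sdc4) and 6 were lower (Ilk, Itga1, Itga4, Itga6, Itgb1 and Itgb5). Over all tested genes 9.69% were higher and 12.1% lower at that level, beside 7.41% and 22.2% of the group. The groups did not overlap for 5 genes that were higher in the knockout (18.5%, where 26.3% of all genes were) and for 9 that were lower (33.3%, where 32.5% were). Both shares of higher genes were below the background. The share of lower genes was above it at the unadjusted threshold and close to it by overlap. The count of 6 lower genes was 3 if wild-type replicate 1 was left out and 0 if wild-type replicate 2 was. The count of 2 higher genes was 0 if wild-type replicate 2 was left out and 5 if knockout replicate 1 was.

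**Figure D1:**
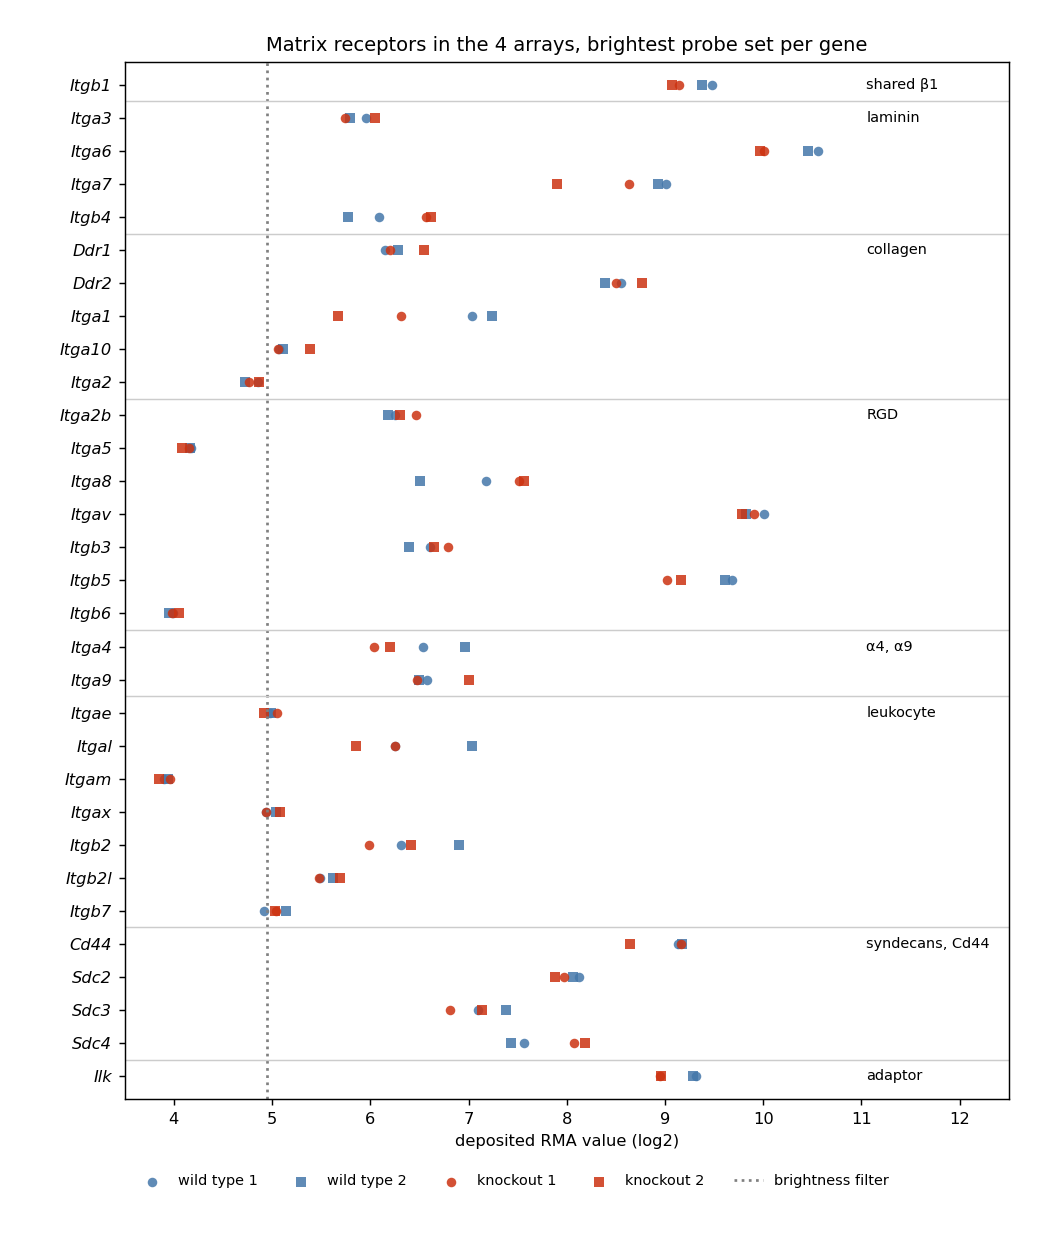
Deposited RMA values (log2, x axis) of the 31 genes in each of the 4 arrays, by the matrix protein their receptors bind or the cells that carry them; circles are replicate 1, squares replicate 2, blue wild type, red knockout, and the dotted line is the brightness filter of 4.94. Both red points lie left of both blue points for Itga1, Itga6 and Itgb5, and right of them for Itgb4, Itga8 and Sdc4. Positions compare arrays within a gene only, since probe sets of different genes are not on a common scale.

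Markers of other tissues differed between the arrays, and some stand beside the results below. Summed over 15 skeletal muscle markers, the linear values were 1341 and 4386 in wild type against 904 and 57554 in knockout replicates 1 and 2. Of the 14 muscle markers tested, 14 were higher in the mean of the knockout, which knockout replicate 2 set. Summed over 15 markers of epidermis and hair follicle they were 1189 and 3583 against 13419 and 816, with 9 of 11 tested higher. Of the markers of the labelled tissue, 12 of 14 luminal epithelial, 9 of 9 basal epithelial and 6 of 7 fat cell markers lay above the filter. The filter is on the mean over the arrays, so these counts do not show each array by itself. Basal epithelial markers summed to 970 and 831 in wild type against 1866 and 874, and luminal ones to 2114 and 1113 against 2849 and 2460. The high basal sum was in knockout replicate 1, as was that of epidermis and hair follicle markers. Whether epidermis had a part in the basal sums was not tested. In whole tissue, fewer cells of a type and less RNA per cell cannot be told apart.

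**Figure D2:**
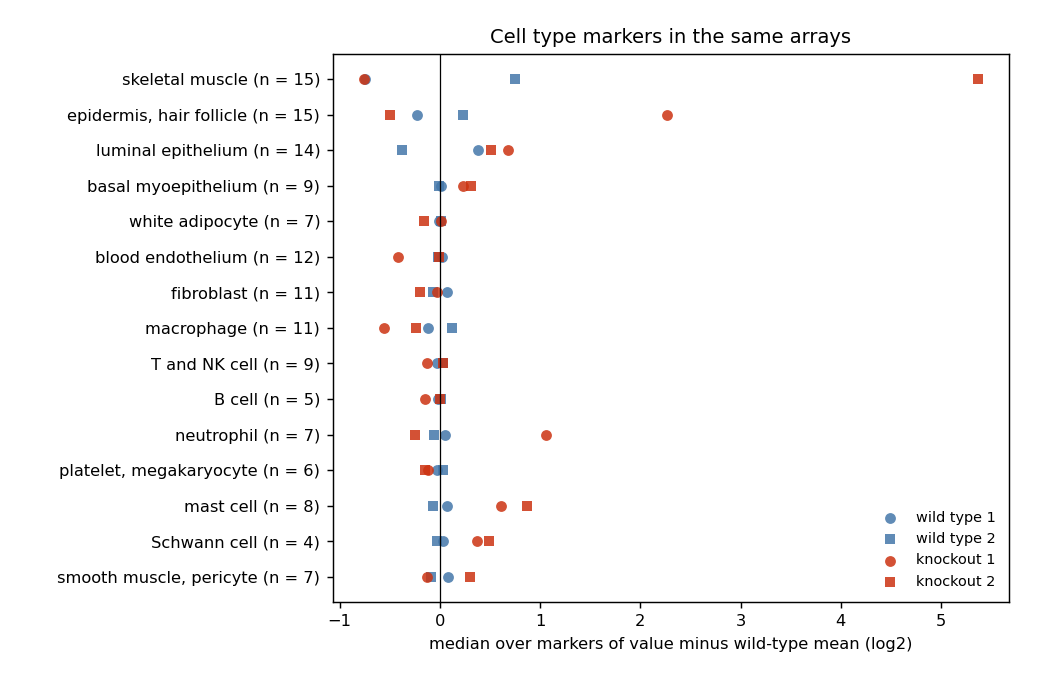
Median, over the markers of a cell type, of the value minus the wild-type mean (log2, x axis), for 15 marker lists and the 4 arrays; n is the number of markers on the array. Knockout replicate 2 stands at 5.37 for skeletal muscle and knockout replicate 1 at 2.27 for epidermis and hair follicle, while the other lists lie within 1 of the wild-type mean, apart from neutrophils at 1.06 in knockout replicate 1.

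Among the laminin receptors the 2 chains of the hemidesmosome integrin went opposite ways. Values are given for wild-type replicates 1 and 2, then for knockout replicates 1 and 2. Itga6 measured 10.56 and 10.45 in wild type against 10.01 and 9.97. Its partner Itgb4, which anchors basal cells to laminin through keratin, measured 6.09 and 5.78 against 6.57 and 6.62. The knockout arrays thus lay below wild type for the alpha chain and above it for the beta chain, with no overlap in either. Itga6 was 1.43-fold lower (-0.52 ± 0.10, SE, n = 2 per group, limma adjusted p = 0.131) and Itgb4 was 1.58-fold higher (0.66 ± 0.14, adjusted p = 0.146). A second probe set of Itga6 gave -0.50, also without overlap, whereas Itgb4 had a single set. Within each array the Itgb4 value minus the Itga6 value was -4.47 and -4.68 in wild type against -3.43 and -3.35, a shift of 1.18 that shows unequal difference of the pair and not how either chain differed alone.

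Markers of basal epithelium, the layer that carries both chains, were higher for 7 of 9 genes, with sums of 970 and 831 in wild type against 1866 and 874. The sum was above wild type in knockout replicate 1 only, while the median marker stood 0.23 and 0.31 above the wild-type mean. Markers of epidermis, which carries both chains as well, stood far higher in knockout replicate 1 than in replicate 2, at 13419 against 816. Itgb4 was 6.57 and 6.62 in these arrays. The part of these markers in the differences of Itga6 and Itgb4 was not tested. Of 12 blood endothelial markers 9 were lower in the mean, with sums of 8518 and 8469 in wild type against 7619 and 8314. The median marker stood at -0.42 and -0.01 against the wild-type mean in knockout replicates 1 and 2, and Itga6 at -0.50 and -0.54. The part of endothelium in the difference of Itga6 was not tested. Schwann cells carry Itgb4 too, and 3 of 4 of their markers were higher, with sums of 3692 and 3548 in wild type against 4142 and 4026. Itgb4 stood 0.64 and 0.68 above the wild-type mean in the knockout arrays.

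The other laminin-binding alpha chains differed from each other. Itga7, the laminin receptor of muscle and vessel wall, was named after its values were seen: it measured 9.01 and 8.93 in wild type against 8.64 and 7.90. The groups did not overlap, but the knockout arrays lay 0.74 apart, the widest gap between them in the group, and the difference of -0.70 ± 0.28 had an adjusted p of 0.260. The lower value was in knockout replicate 2, where skeletal muscle markers summed to 57554. Itga3, the laminin receptor of many epithelia, gave 5.96 and 5.79 against 5.74 and 6.05, with overlap and a difference of 0.02 ± 0.15, whose sign turned under median centring and cyclic loess.

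The shared beta chain and its adaptor were slightly lower. Itgb1, the partner of most alpha chains here, measured 9.48 and 9.37 in wild type against 9.14 and 9.07. Ilk, the pseudokinase scaffold that binds its tail, measured 9.32 and 9.29 against 8.95 and 8.96. In both genes the knockout arrays were below both wild-type arrays and close to each other. The differences were -0.32 ± 0.10 (1.25-fold, limma adjusted p = 0.198) for Itgb1 and -0.35 ± 0.09 (1.27-fold, adjusted p = 0.167) for Ilk. A second bright probe set of Itgb1 gave -0.22 and a dimmer one -0.07, both without overlap, and the 2 dimmest sets, at 3.84 and 3.55, differed by 0.02 and 0.03. As the mean of its sets Itgb1 differed by -0.11, with an unadjusted limma p of 0.227. That p was 0.057 after cyclic loess and 0.051 after quantile normalisation.

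**Figure D3:**
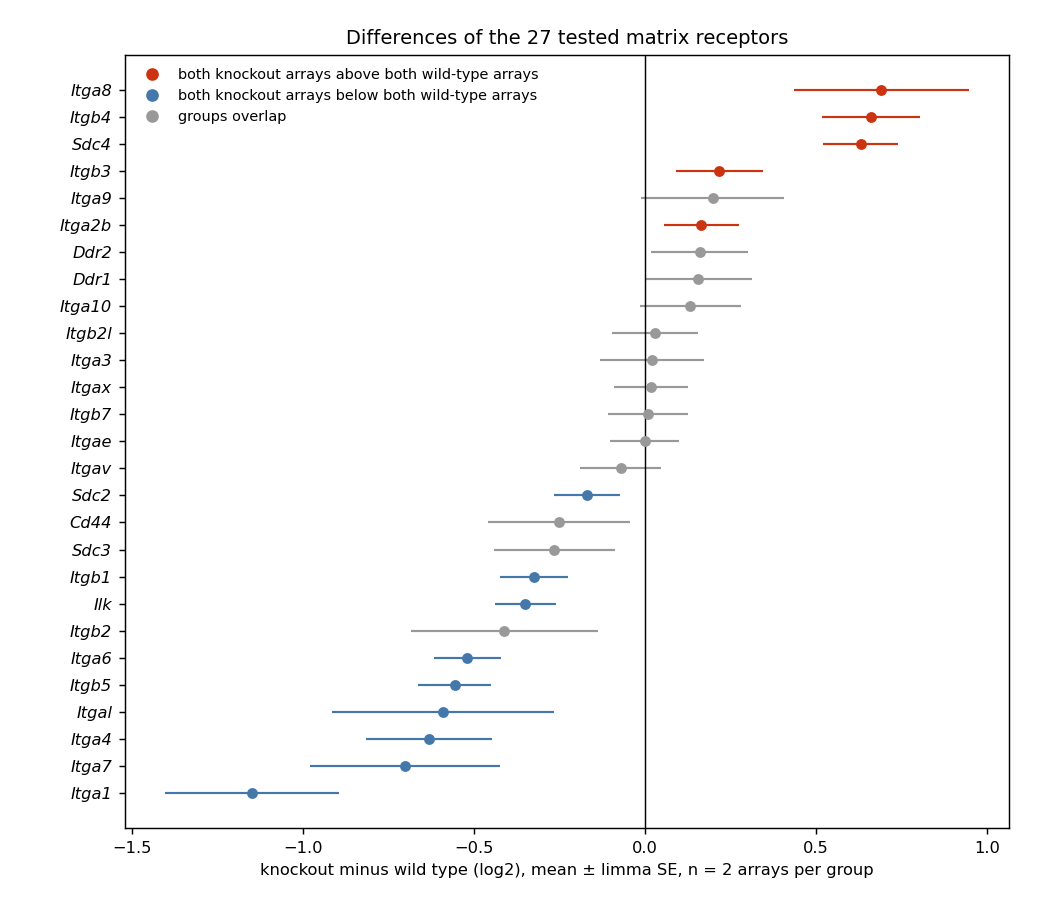
Difference between knockout and wild type (log2, x axis) of the 27 tested genes, as the mean with limma's standard error, n = 2 arrays per group; red and blue mark genes whose groups do not overlap, grey those that do. Itga1 lies at -1.15 and Itga8 at 0.69, and 13 of the 27 genes are grey.

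Itga1 had the largest difference of the group. This chain pairs with Itgb1 as a receptor for collagen IV and other collagens on stromal, vessel and smooth muscle cells. It measured 7.04 and 7.24 in wild type against 6.31 and 5.67. Both knockout arrays were lower, at -0.83 and -1.47 against the wild-type mean, and they lay 0.64 apart. The mean difference was -1.15 ± 0.25 (2.22-fold, limma adjusted p = 0.149), measured by a single probe set. In the same arrays 9 of 12 blood endothelial markers were lower, with sums of 8518 and 8469 in wild type against 7619 and 8314, and 5 of 7 smooth muscle and pericyte markers were higher, with sums of 8987 and 8280 against 7607 and 8341. Of 11 fibroblast markers 8 were lower in the mean, with sums of 30863 and 28531 in wild type against 28655 and 24035. Their lowest sum was in knockout replicate 2, as was the lowest value of Itga1. Whether any of these cells had a part in the difference was not tested.

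Among the other collagen receptors Ddr1 and Ddr2 showed no such difference. Itga2 was below the filter and Itga10 near the background, so their small differences do not bear on this. Itga2, the neighbour of Itga1 in the genome and the epithelial collagen receptor, had 4.85, 4.72, 4.77 and 4.86 and was below the filter. Ddr1, the discoidin receptor of epithelia, gave 6.15 and 6.29 in wild type against 6.21 and 6.54 (0.16 ± 0.16, limma adjusted p = 0.588). Ddr2, that of fibroblasts, gave 8.56 and 8.39 against 8.50 and 8.77 (0.16 ± 0.14, adjusted p = 0.540), and 0.19 in its second probe set. For both genes the groups overlapped and the highest array was knockout replicate 2. Of the 11 fibroblast markers given beside Itga1, 8 had a lower mean, and their part in the difference of Ddr2 was not tested. Itga10, the collagen receptor of cartilage, differed by 0.13, at a mean of 5.16 near the background. Differences of the size of the standard error could not be resolved with 2 arrays per group.

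Among the receptors for RGD proteins, Itgb5 was lower while the alpha chain it pairs with was not separated by genotype. Itgb5, which with Itgav makes a vitronectin receptor of epithelium and fat, measured 9.68 and 9.61 in wild type against 9.02 and 9.16. Neither knockout array reached a wild-type array, and the difference was -0.56 ± 0.11 (1.47-fold, limma adjusted p = 0.132). Its second probe set gave -0.53, also without overlap. Itgav measured 10.01 and 9.83 against 9.91 and 9.78, so the groups overlapped (-0.07 ± 0.12, adjusted p = 0.746), and its sign turned under cyclic loess and quantile normalisation. Of 6 tested fat cell markers 4 were lower, with sums of 30597 and 30689 in wild type against 30567 and 25893. The lowest fat sum was in knockout replicate 2 and the lowest Itgb5 value in knockout replicate 1. The part of fat cells in the difference of Itgb5 was not tested.

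Itgb3, the other well-known partner of Itgav, on platelets and vessels, went the other way by a smaller amount. It gave 6.61 and 6.40 in wild type against 6.79 and 6.65, so that the groups only just failed to overlap (0.22 ± 0.13, adjusted p = 0.384), and its dimmer probe set differed by -0.05. Itga2b, the alpha chain of the platelet fibrinogen receptor, gave 6.26 and 6.18 against 6.47 and 6.30 (0.17 ± 0.11, adjusted p = 0.436). Both genes were higher in both knockout arrays. Of 6 platelet markers on the array 3 were tested, and 2 of these were lower. The 6 summed to 1510 and 1602 in wild type against 1472 and 1391. The part of platelets in the differences of Itgb3 and Itga2b was not tested. Mast cells can carry both chains and Itga4 as well. Of 6 tested mast cell markers 6 were higher without overlap and at an unadjusted p under 0.05, with sums of 1981 and 1656 against 3265 and 3833. Their part in the differences of Itgb3, Itga2b and Itga4 was not tested.

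Itga8, an RGD receptor of smooth muscle and mesenchyme that pairs with Itgb1, had the largest positive difference with all 4 arrays. It measured 7.18 and 6.51 in wild type against 7.51 and 7.56. The knockout arrays lay 0.05 apart and the wild-type arrays 0.67, and the difference of 0.69 ± 0.26 (1.61-fold) had a limma adjusted p of 0.238. It was 0.35 without wild-type replicate 2, below Sdc4 at 0.56 and Itgb4 at 0.50, and 1.03 without wild-type replicate 1. The smooth muscle and pericyte markers given beside Itga1, 5 of 7 of them higher, summed to 8987, 8280, 7607 and 8341, and their part in the difference of Itga8 was not tested. Its second probe set stood near background at 3.95, where its groups overlapped. Itga5, the classical fibronectin receptor chain, had 4.17, 4.16, 4.15 and 4.09, and Itgb6, an epithelial partner of Itgav, had 3.99, 3.95, 3.98 and 4.05, in the order wild type then knockout. Both lay below the filter in all arrays, where RMA compresses differences, so nothing can be read from their flatness.

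Among the integrins of leukocytes, Itga4, Itgal and Itgb2 had lower means in the knockout and the rest were flat or dim. Itga4, which binds Vcam1 and is carried by lymphocytes and other leukocytes, measured 6.54 and 6.96 in wild type against 6.03 and 6.20. Both knockout arrays were below wild type, and the difference was -0.63 ± 0.18 (1.55-fold, limma adjusted p = 0.188). The brightest of its other probe sets, at 4.28, gave -0.17. Itgal and Itgb2, the chains of the lymphocyte Icam1 receptor, named after their values were seen, gave 6.25 and 7.03 against 6.25 and 5.85, and 6.32 and 6.90 against 5.98 and 6.41. For Itgal wild-type replicate 1 and knockout replicate 1 were nearly equal, and for Itgb2 the groups overlapped (adjusted p = 0.363 and 0.432).

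In both genes wild-type replicate 2 was the highest array, by 0.78 and 0.59 over wild-type replicate 1. Of 11 tested macrophage markers 11 were lower in the mean, with sums of 5163 and 6411 in wild type against 4158 and 4875, so wild-type replicate 2 was the highest there too. T and NK cell markers summed to 334, 361, 312 and 358, and only 4 of the 9 on the array lay above the filter. The part of these cells in the differences was not tested. Itgax, Itgae, Itgb7 and the neutrophil gene Itgb2l differed by at most 0.03, and Itgax, Itgae and Itgb7 had means of 4.98 to 5.03, near the filter. Itgam, the neighbour of Itgax, was below it at 3.91. Itga9, which is related to Itga4 and serves lymphatic vessels and muscle, overlapped, with a difference of 0.20 ± 0.21. Its other probe sets, at means of 5.23 and 4.95, differed by -0.0026 and -0.011, also with overlap.

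Among the syndecans Sdc4 was higher. Sdc4, the syndecan of focal adhesions, measured 7.57 and 7.43 in wild type against 8.07 and 8.19. The arrays of a genotype lay within 0.14 of each other, and both knockout arrays were above both wild-type arrays. The difference was 0.63 ± 0.11 (1.55-fold), with the smallest adjusted p of the group (limma, 0.123). Its other probe set, at a mean of 5.43, differed by only 0.06 with overlap, and the mean of both sets gave 0.35. Sdc2, the syndecan of mesenchyme, was lower by a small amount, at 8.13 and 8.07 against 7.97 and 7.88 (-0.17 ± 0.10, adjusted p = 0.375), and its other sets overlapped. Sdc3, a syndecan of nerve and muscle, overlapped, with 7.10 and 7.38 against 6.81 and 7.14. The difference between the brightest sets of Sdc4 and Sdc2 within an array shifted by 0.80, which only combines the differences already given. Of 12 luminal epithelial markers 12 were higher in the mean, with sums of 2114 and 1113 in wild type against 2849 and 2460, and their part in the difference of Sdc4 was not tested.

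Cd44, the hyaluronan receptor, which Mt1-mmp is known to cleave, overlapped between the genotypes. It measured 9.13 and 9.17 in wild type against 9.16 and 8.64, so that knockout replicate 2 alone was low (-0.25 ± 0.21, limma adjusted p = 0.516). A second bright probe set, with 8.05 and 8.14 against 8.23 and 7.70, also had its lowest value in knockout replicate 2. Without knockout replicate 2 the difference was 0.01.

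**Figure D4:**
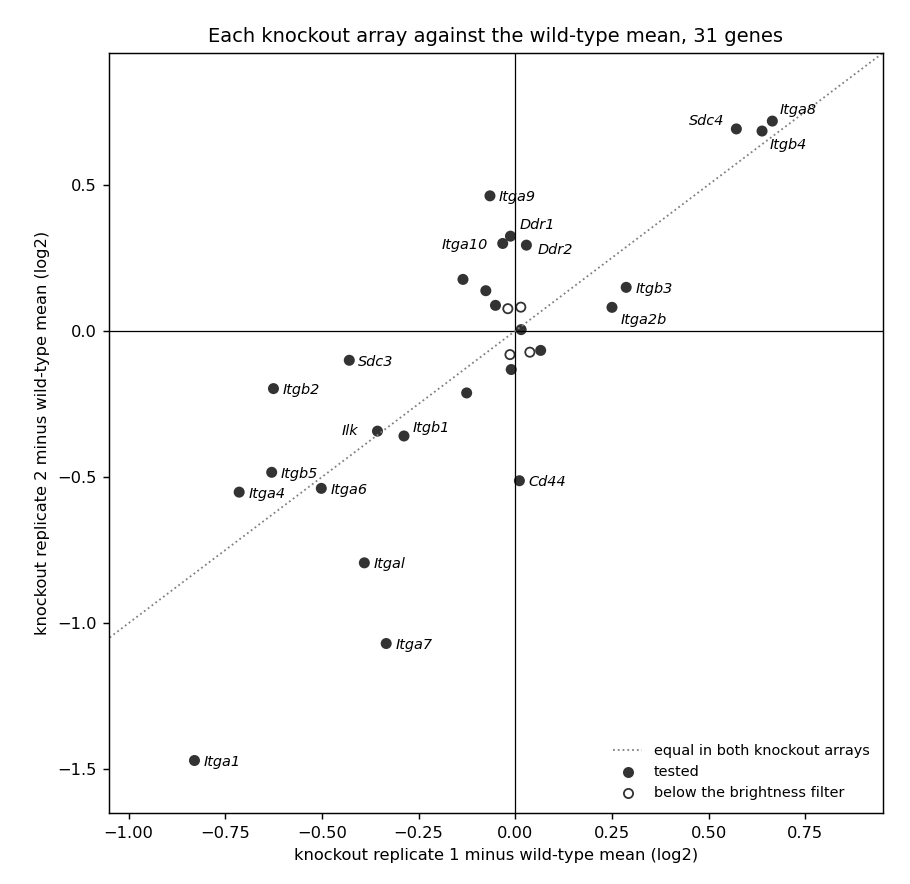
Each of the 31 genes by its value in knockout replicate 1 (x axis) and in knockout replicate 2 (y axis), each minus the wild-type mean (log2); filled points were tested, open points lay below the brightness filter, and the dotted line marks equal values. Itga6, Ilk, Itgb1, Sdc4, Itgb4 and Itga8 lie near the line, whereas Itga1, Itga7 and Cd44 are lower in knockout replicate 2 and Itga9 is higher there.

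Of the 27 tested genes 7 were above the wild-type mean in both knockout arrays, 12 were below it in both and 8 lay on opposite sides. The gap between the knockout arrays had a median size of 0.16, against 0.14 between the wild-type arrays, where all tested genes had 0.21 and 0.08. Both knockout arrays are set against the same wild-type mean, so their likeness is a description only. Without knockout replicate 1, limma called 3 of 27 genes higher (Itga9, Itgb4 and Sdc4) and 7 lower (Cd44, Ilk, Itga1, Itga6, Itga7, Itgb1 and Itgb5), where it called 13.1% and 24.6% of all genes. Without knockout replicate 2 it called Sdc4 higher and Itga1 and Itgb5 lower, that is 1 and 2 of 27, where it called 6.73% and 4.99% of all genes. Each of these fits has 1 knockout array, whose spread is taken from the wild-type arrays.

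**Figure D5:**
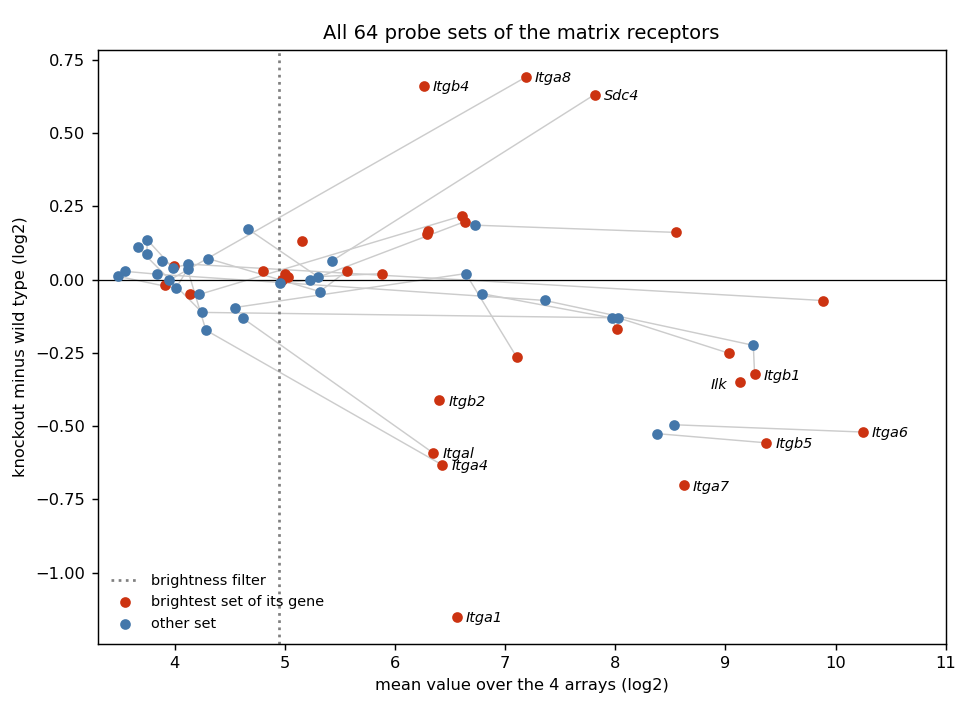
Mean value over the 4 arrays (log2, x axis) and difference between knockout and wild type (log2, y axis) of all 64 probe sets; grey lines join the sets of a gene, red marks the brightest set, which was used, and blue the others. The paired points of Itga6 and Itgb5 lie at the same height, while the second sets of Sdc4 and Itga8 lie near 0 and are dimmer.

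Of the 31 genes 17 had more than 1 probe set. Of their 33 further sets 19 lay below the brightness filter. Itga6 and Itgb5 each had a second bright set with nearly the same difference and no overlap, whereas the dimmer sets of Sdc4 and Itga8 did not separate the genotypes.

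The sequence just upstream of the start is shown for Sdc4, which had the smallest p among the higher genes, for Itgb5, which had the smallest p among the lower genes listed in the promoter table, and for Itga1, which had the largest difference. Each line gives the 250 bases before the annotated start, 5′ to 3′ on the gene's strand, from RefSeq on GRCm38.p6, with windows at chr2:164443189-164443438 (minus strand), chr16:33829415-33829664 (plus strand) and chr13:115101965-115102214 (minus strand). Capitals mark GC boxes, the letters GGGCGG on either strand, which are known as the site of Sp family factors.
Sdc4: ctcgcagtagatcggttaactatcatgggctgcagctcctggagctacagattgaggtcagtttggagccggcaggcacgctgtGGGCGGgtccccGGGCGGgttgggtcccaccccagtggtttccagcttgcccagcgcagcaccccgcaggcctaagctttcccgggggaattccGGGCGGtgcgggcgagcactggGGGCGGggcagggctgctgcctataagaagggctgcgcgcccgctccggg
Itgb5: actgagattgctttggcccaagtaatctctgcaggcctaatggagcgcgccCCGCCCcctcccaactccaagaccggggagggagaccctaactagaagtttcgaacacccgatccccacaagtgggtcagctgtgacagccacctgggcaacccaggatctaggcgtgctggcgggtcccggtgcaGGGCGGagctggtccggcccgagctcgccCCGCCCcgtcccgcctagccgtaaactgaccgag
Itga1: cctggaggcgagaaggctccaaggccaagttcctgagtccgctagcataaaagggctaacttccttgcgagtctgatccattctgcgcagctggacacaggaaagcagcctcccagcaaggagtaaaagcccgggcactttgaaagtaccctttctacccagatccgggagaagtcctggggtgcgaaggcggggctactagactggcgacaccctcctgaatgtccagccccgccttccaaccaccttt

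The Sdc4 window held 4 GC boxes and that of Itgb5 held 3, so a gene that was higher and a gene that was lower in the knockout share this feature, and that of Itga1 held 0. A GC box was found in 10 of the 23 genes of the group that have a window, which have 29 windows between them. It was found in 32.7% of all 32851 windows of this length. The first counts genes and the second counts windows, so they are not like measures. The E-box letters CANNTG, left in lower case, occurred 0, 3 and 1 times, and in 66.2% of all windows, and no E-box shared a base with a GC box here. None of the 3 windows held CCAAT (33.8% of all windows), TATAAA (12.4%), the AP-1 letters TGANTCA (6.7%) or the TEAD letters GGAATG (12.6%), searched on both strands. The windows were 68.0%, 65.2% and 57.6% G and C, where the median window had 52.4%. A match describes letters and not a bound site.

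Partners of these receptors showed differences in both directions. In 7 lists of adhesion proteins, signalling adaptors, tetraspanins, other matrix receptors, cell surface ligands and syndecan partners, 103 genes were tested, with a median of -0.11. None passed limma's adjusted threshold (smallest adjusted p = 0.105), and at an unadjusted p under 0.05, 6 were higher (5.83%) and 13 lower (12.6%), beside 9.69% and 12.1% of all genes. The groups did not overlap for 18 of the 103 that were higher and 46 that were lower, where this held for 26.3% and 32.5% of all genes.

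Of 19 core focal adhesion genes, 16 had a lower mean in the knockout, as did 5922 of all 11078 tested genes. The median of the 19 was -0.23, and at the unadjusted level 3 were lower and 1 higher. The actin regulator Vasp had 9.74 and 9.78 in wild type against 9.16 and 9.15 (-0.61 ± 0.09, SE, n = 2 per group, limma adjusted p = 0.110). Parva, which binds Ilk, differed by -0.74 ± 0.15 (adjusted p = 0.143), and vinculin (Vcl) had 10.59 and 10.59 against 10.29 and 10.12 (-0.39 ± 0.11, adjusted p = 0.178). All 3 were below wild type in both knockout arrays, as were Ilk and Itgb1. The 3 were picked for a small p, which favours such separation. In the list 8 of 19 genes were separated in this way, where 32.5% of all genes were. Of 22 signalling genes 16 were lower (median -0.17), 3 of them at the unadjusted level, led by the phosphatase gene Ptpn11 (-0.65), the adaptor gene Grb2 (-0.58) and the kinase gene Pak2 (-0.44).

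Of 13 genes that bind or regulate integrin tails, or resemble integrins in name, 8 were lower and 5 higher. Cib1, which binds the tail of Itga2b, had 9.29 and 9.28 against 8.59 and 8.05 (-0.96 ± 0.21, limma adjusted p = 0.149). Rasgrp2, an activator of Rap1, differed by -0.39 and Itgbl1, a secreted protein with integrin-like repeats, by 0.38. Of 11 tetraspanins and other lateral partners 7 were lower, among them Tspan15 (-0.65) and Cd151 (-0.46), the tetraspanin that holds Itga6 integrins, whereas Cd9 was higher, with 10.05 and 9.83 in wild type against 10.76 and 10.70 (0.79 ± 0.12, adjusted p = 0.115). Among these tetraspanins Cd9 and Cd151 thus lay on opposite sides of wild type in both knockout arrays.

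Of 12 cell surface ligands of integrins tested, 8 were lower in the mean. Icam2 of endothelium, a ligand of Itgal with Itgb2, had 9.85 and 9.90 in wild type against 9.18 and 9.06 (-0.76 ± 0.10, limma adjusted p = 0.105). Thy1, also a marker of fibroblasts, was next by p, with -0.58 and -1.77 in the knockout arrays against the wild-type mean, followed by Adam9 with a difference of -0.55. Of 12 other matrix receptors 7 were higher, among them Rpsa (0.43), a ribosomal protein also described as a laminin receptor, and Lyve1 (0.41), the hyaluronan receptor of lymphatic vessels, while the glypican Gpc4 was lower, with 9.04 and 8.91 against 8.42 and 8.19 (-0.67 ± 0.13, adjusted p = 0.132). Of 14 genes that make heparan sulphate or bind syndecans 10 were lower, with Ext1, which builds the heparan sulphate chain, at -0.49, and Sdcbp2 (0.24) and Ndst2 (0.27) higher.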

How the data were processed

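The authors deposited 1 log2 value per probe set for each of 4 Affymetrix arrays. The submitters' processing notes name RMA and affy, with no version. The scale was read from the values, whose array medians were 4.92, 4.92, 4.92 and 4.98. RMA equalises the arrays, so a difference shared by most genes is lost, and 2 arrays per group set the precision.

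Of 45141 probe sets 28898 had 1 gene. Symbols were checked against RefSeq (GRCm38.p6), which matched 28689 sets and changed 0. The brightest single-gene set stood for each gene. Genes whose mean reached 4.94, the median of all sets, entered limma 3.58.1 in R 4.3.3 (lmFit, eBayes, no covariate, Benjamini-Hochberg over 11078 genes), which was tested on simulated data. Marker sums add values taken off the log scale.

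Members, 7 partner lists and 15 marker lists were chosen with earlier results of these data known. Array values are given for members with the smallest p without overlap (up to 6 per direction), the best-known receptors, and up to 3 genes per partner list. Alternatives were other filters, probe set rules, scalings, variance models, the replicate number as a block, and each array left out.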

Additional observations from a re-analysis of the deposited data

How the results depend on the processing

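No gene of the group passed the adjusted threshold under any alternative with all 4 arrays, or without a wild-type array. Over all genes limma called 0 in each direction with all 4 arrays, and 0 to 1455 higher and 0 to 2725 lower with an array left out, in the group 0 to 3 higher and 0 to 7 lower. At an unadjusted p under 0.05 the group had 0 to 5 higher and 0 to 7 lower genes with an array left out, and 1 higher with the 75th percentile brightness filter, which left out Itgb4. The group's median was -0.26 with that filter, over the 12 genes it kept, beside -0.070 over all genes it kept. Of these 12, 4 were lower and 1 higher at an unadjusted p under 0.05, beside 15.1% and 11.2% of all genes. The median of 0.00 over the 27 genes thus depended on the dimmer ones. With an array left out it was -0.067 to -0.037. Signs turned for genes near 0: Itga3 had -0.0059 after median centring and -0.0048 after cyclic loess, and -0.14 to 0.18 with an array left out; Itgav had 0.049 as the mean of its probe sets, 0.0089 after cyclic loess, 0.0078 after quantile normalisation, and -0.16 to 0.020 with an array left out; Ddr1 had -0.012 to 0.32 and Cd44 -0.51 to 0.011 with an array left out. Itga9 and Itga10 also turned without knockout replicate 2, to -0.065 and -0.032. So did Itgb2l, Itgax and Itgae, to -0.076, -0.051 and 0.066. The differences of Ddr2, Ilk, Itga1, Itga2b, Itga4, Itga6, Itga7, Itga8, Itgal, Itgb1, Itgb3, Itgb4, Itgb5, Sdc4 and Mmp14 kept their sign under the alternatives in which they were tested; the other genes were not followed through the alternatives. With the replicate block, 0 genes were called, and the group had at an unadjusted p under 0.05 the 2 higher genes Itgb4 and Sdc4 and 6 lower genes, Itga1, Itga4, Itga6, Itga7, Itgb2 and Itgb5; the smallest adjusted p in the group was 0.263. The gap between replicates 1 and 2 had a correlation of -0.09 across genes between the genotypes. This cannot exclude a pairing by litter, since the knockout gap also holds the differences in muscle and epidermis markers. No pairing was assumed.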
